A study of Mus musculus with 10 samples.

Results

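Serum response factor (Srf) and 9 genes that it is known to regulate (Tgfb1i1, Acta2, Tagln, Cnn1, Myl9, Tpm1, Tpm2, Csrp1 and Vcl) were followed through depolarization of cultured cortical cells. These 10 genes, of 13184 genes listed in the counts, were selected on the KCl effect itself: the rise of Srf RNA and the direction of the RNA of its targets in these same cultures chose them. Their KCl effects are therefore given as a description, and nothing is supported by them. Where a member is said to be called, this gives only the side of the threshold on which the fit over all transcripts placed it, and it is no independent test. All 22 transcripts of the 10 genes were taken, of 22534 listed. Of these, 19 transcripts of 9 genes were measured, as were 7262 transcripts of 4369 genes in all. Tpm2 was not measured, because none of its 3 transcripts reached an RPKM of 10 in both RNA and footprints in 2 cultures.

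SRF is a MADS-box transcription factor that binds a short DNA element, the CArG box, near the start of its target genes, one of which is the Srf gene itself. It works with 2 families of partners. The ternary complex factors (TCFs, the Elk proteins), which are switched on by MAP kinases, drive immediate early genes, and the myocardin-related factors (MRTFs), which are held back by free actin monomers, drive genes of the cytoskeleton and of contractile filaments. In brain, SRF is known for activity-induced transcription in neurons, while some of its contractile targets mark smooth muscle cells, pericytes and fibroblast-like cells.

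The cells came from the cortex of newborn (postnatal day 0) FVB mice of both sexes and were kept for 7 days in medium with 5% horse serum, in which neurons and glia grow together. Untreated cultures (numbered 1, 2 and 3) were compared with cultures that received 55 mM KCl for 3 h (4 and 5), and all 5 were given 100 ug/ml of cycloheximide, a drug that holds ribosomes in place, in the last 7 min. Each culture gave an RNAseq library and a ribosome footprinting (RF) library. Translation efficiency (TE) is the ratio of footprints on the coding region (CDS) to RNAseq reads, so that TE and the 2 measures it is made of share the same reads. RNAseq libraries held between 3056286 and 3629959 counted reads, and RF libraries between 1463654 (untreated culture 3) and 7719915 (untreated culture 1), with KCl culture 4 (1608235) also shallow.

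The element that SRF binds was looked for in the promoters of the members, because it is the feature that joins the factor to its targets. RefSeq promoter windows on GRCm38.p6, from 250 bases before to 50 bases after each start, were at hand for 8 of the 10 genes (9 windows, with 2 for Csrp1), and not for Tgfb1i1 and Tagln. A CArG box reads the same way on both strands, so 1 search covered both. It was present in 3 of the 9 windows, those of Srf, Myl9 and Vcl, against 535 of 32851 windows of all genes (1.63%) and 67 of 4532 windows of genes with a measured transcript (1.48%). The Srf window held 2 boxes, which start 82 and 62 bases before the transcription start, and only 6 of the 32851 windows (0.018%) held more than 1. The boxes of Myl9 and Vcl start 161 and 227 bases before the start. Each is shown 5′ to 3′ on the strand of its gene, with the box in capitals and 10 bases on either side. With these flanking bases, the Srf stretches lie at chr17:46556225-46556254 and chr17:46556205-46556234 (minus strand). The stretch of Myl9 lies at chr2:156775293-156775322 (plus strand) and that of Vcl at chr14:20929161-20929190 (plus strand).
Srf, farther box: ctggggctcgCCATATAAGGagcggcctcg
Srf, nearer box: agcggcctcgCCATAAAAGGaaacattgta
Myl9: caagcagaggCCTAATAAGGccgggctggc
Vcl: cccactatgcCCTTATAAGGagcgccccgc
The 2 stretches shown for Srf overlap. No box was found in the windows of Acta2, Cnn1, Csrp1, Tpm1 and Tpm2, which says only that these letters do not occur there. The Tpm1 window (chr9:67049164-67049463, minus strand) lies upstream of the start of the Tpm1 transcript described below (67043962). The promoter of that transcript was therefore not searched. Of the 3 genes with a box in this window, Srf was called higher in RNAseq with KCl and Myl9 and Vcl were not called in either direction.

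Srf, the factor itself, had 1 listed transcript (chr17:46548329-46556175, minus strand, 7 exons) with a 5′UTR of 347 nt, a coding region of 1512 nt and a 3′UTR of 757 nt. Untreated cultures 1, 2 and 3 had 122, 139 and 143 RNAseq reads on it, and KCl cultures 4 and 5 had 628 and 730. As normalised RPKM (reads divided by transcript length and by library size, with libraries scaled by TMM, the trimmed mean of M-values), its RNA lay at 14.1, 16.1 and 17.5 without KCl and at 76.3 and 79.3 with KCl. The groups were far apart and each was tight, with means of 15.9 ± 1.68 (SD, n = 3) and 77.8 ± 2.08 (SD, n = 2). The log2 fold change was 2.29 ± 0.15 (SE), a 4.89-fold higher level, and it ranked 38th from the highest of the 7262 measured transcripts. Srf was called higher (an adjusted p under 0.05 in the count test of edgeR over all measured transcripts), as were 17.5% of all measured transcripts in that direction, while 15.7% were called lower. As in any bulk sample, more or fewer cells that hold an RNA and more or less of that RNA per cell cannot be told apart.

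Footprints on the Srf coding region rose far less than its RNA. They numbered 97, 74 and 27 in untreated cultures and 37 and 58 in KCl cultures, which corresponds to normalised RPKM of 8.69, 7.77 and 13.2 against 17.1 and 14.0. Both KCl cultures lay above the 3 untreated ones, but KCl culture 5 exceeded untreated culture 3 only narrowly. The RF log2 fold change was 0.76 ± 0.24 (SE), the 548th from the highest, and it was called higher, as were 21.2% of measured transcripts (19.8% were called lower). This call was lost in edgeR without KCl culture 4 (log2 fold change 0.63), KCl culture 5 (0.92) or untreated culture 1 (0.71), and with DESeq2 (0.72). The filter touches this gene: Srf passed it in untreated culture 3 alone of the untreated cultures and in both KCl cultures. With no filter its log2 fold changes were 2.36 in RNAseq and 0.82 in RF.

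The TE of Srf was correspondingly lower with KCl. It was 0.616, 0.482 and 0.754 in untreated cultures and 0.224 and 0.177 in KCl cultures, and the groups did not overlap. The log2 fold change was -1.59 ± 0.28 (SE), the 21st from the lowest of all measured transcripts, and it was between -1.77 and -1.40 when each culture was left out in turn. Srf was the single member called in TE, in a comparison that called 1.67% of measured transcripts higher and 4.13% lower. Of the 1272 transcripts higher in RNAseq, 126 were lower in TE, and of the 55 with an RNAseq log2 fold change of at least 2, 5 were. Even without KCl the TE of Srf was low, at percentile 5.6 of measured transcripts, and its footprint level stood at percentile 1.4 while its RNA level stood at percentile 34.5. These ranks are among transcripts that passed the filter, which Srf did in 1 untreated culture and 2 KCl cultures. Its low rank in untreated footprints is thus set in part by the filter.

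**Figure D1:**
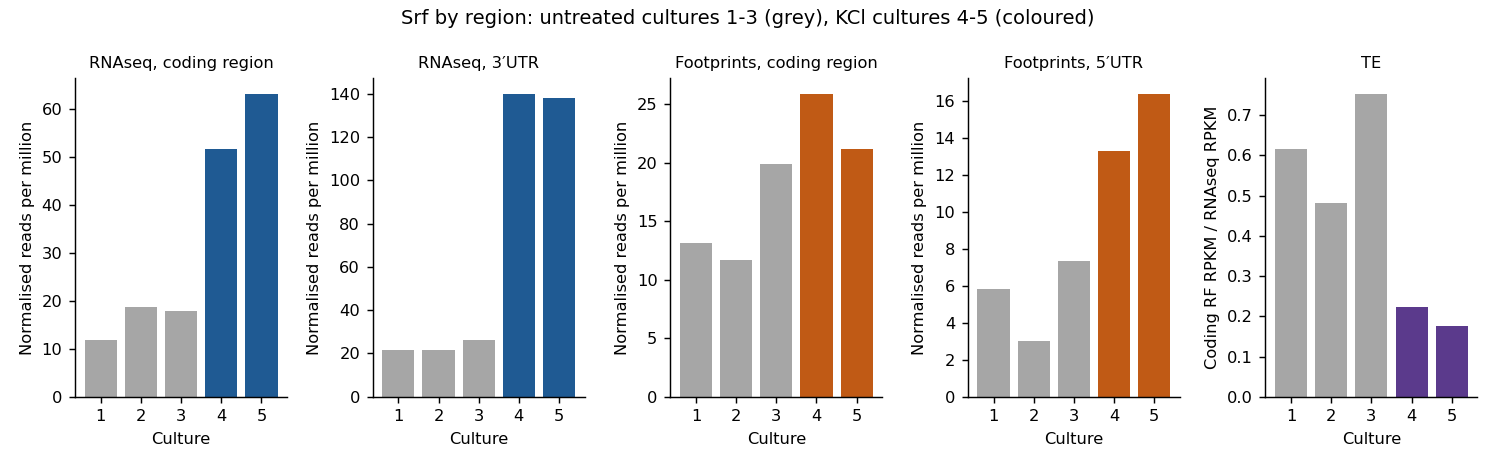
Srf by region in each culture: RNAseq reads per library size (TMM-scaled) on the coding region and the 3′UTR, footprints on the coding region and the 5′UTR on the same scale, and TE (coding-region footprint RPKM over RNAseq RPKM). Bars are single cultures, grey for untreated 1 to 3 and coloured for KCl 4 and 5. RNAseq reads were higher with KCl by 3.56-fold on the coding region and 6.02-fold on the 3′UTR, coding-region footprints by 1.58-fold and 5′UTR footprints by 2.75-fold, and TE fell from a mean of 0.617 to 0.201.

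The parts of the Srf transcript did not move equally. RNAseq reads on its 3′UTR went from 71, 71 and 82 to 440 and 486, and those on its coding region from 39, 62 and 56 to 163 and 223. The log2 fold change was 2.54 ± 0.18 (SE) over the 3′UTR and 1.88 ± 0.21 (SE) over the coding region. For each 100 coding-region reads there were 182, 115 and 146 reads on the 3′UTR without KCl and 270 and 218 with KCl. Among 3502 measured transcripts with at least 30 reads on both regions in every RNAseq library, this share was higher in both KCl cultures than in all untreated cultures for 21.5% and lower for 8.9%. When the coding-region reads alone stood for the RNA, the TE log2 fold change of Srf was -1.21 ± 0.34 (SE), still called lower.

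Footprints on the 5′UTR of Srf were many beside those on its coding region. They numbered 43, 19 and 10 in untreated cultures and 19 and 45 in KCl cultures, which was 44.3, 25.7 and 37.0 for each 100 coding-region footprints without KCl and 51.4 and 77.6 with KCl. Over all measured transcripts together the same share was between 5.86 and 8.65. Among the members, Acta2 also had a high share, between 15.3 and 42.1 in single cultures. Both KCl values lay above the untreated ones, as they did for 17.2% of the 1714 transcripts with at least 10 footprints on each region in every library, while 11.3% had both below. With at most 45 footprints on the 5′UTR in any library, the share in a single culture is imprecise. In the annotation used here, the 5′UTR of Srf is long (percentile 81.3 of measured transcripts), rich in G and C (76.4%, percentile 86.5) and holds 1 upstream AUG, which is also the median number of the 7230 measured transcripts that have a 5′UTR.

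Without KCl, the members spanned a wide range of levels, compared here per length. In RNAseq the mean normalised RPKM of the untreated cultures was highest for Tagln (59.2 ± 8.35, SD, n = 3), followed by Myl9 (42.7 ± 2.45), Tpm1 (40.4 ± 2.38) and Csrp1 (38.7 ± 2.82), which did not differ beyond their spread. Acta2 (22.9 ± 1.32), Tgfb1i1 (19.5 ± 4.33), Vcl (17.4 ± 1.42) and Srf (15.9 ± 1.68) followed, with neighbours again within their spread, then Cnn1 (13.5 ± 0.43) and Tpm2 (7.59 ± 2.37). In footprints the order was different, with Tagln (326), Csrp1 (175), Vcl (109) and Tpm1 (76.9) highest and Tpm2 (10.2) and Srf (9.87) lowest. The level of Vcl in RNAseq is understated, since no reads were listed on its 3′UTR of 1946 nt in any library. With KCl, Srf had the highest RNAseq level of the 10 genes (77.8), above Tpm1 (54.4 ± 2.27, SD, n = 2), but its footprint level (15.6) stayed below those of 6 targets.

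**Figure D2:**
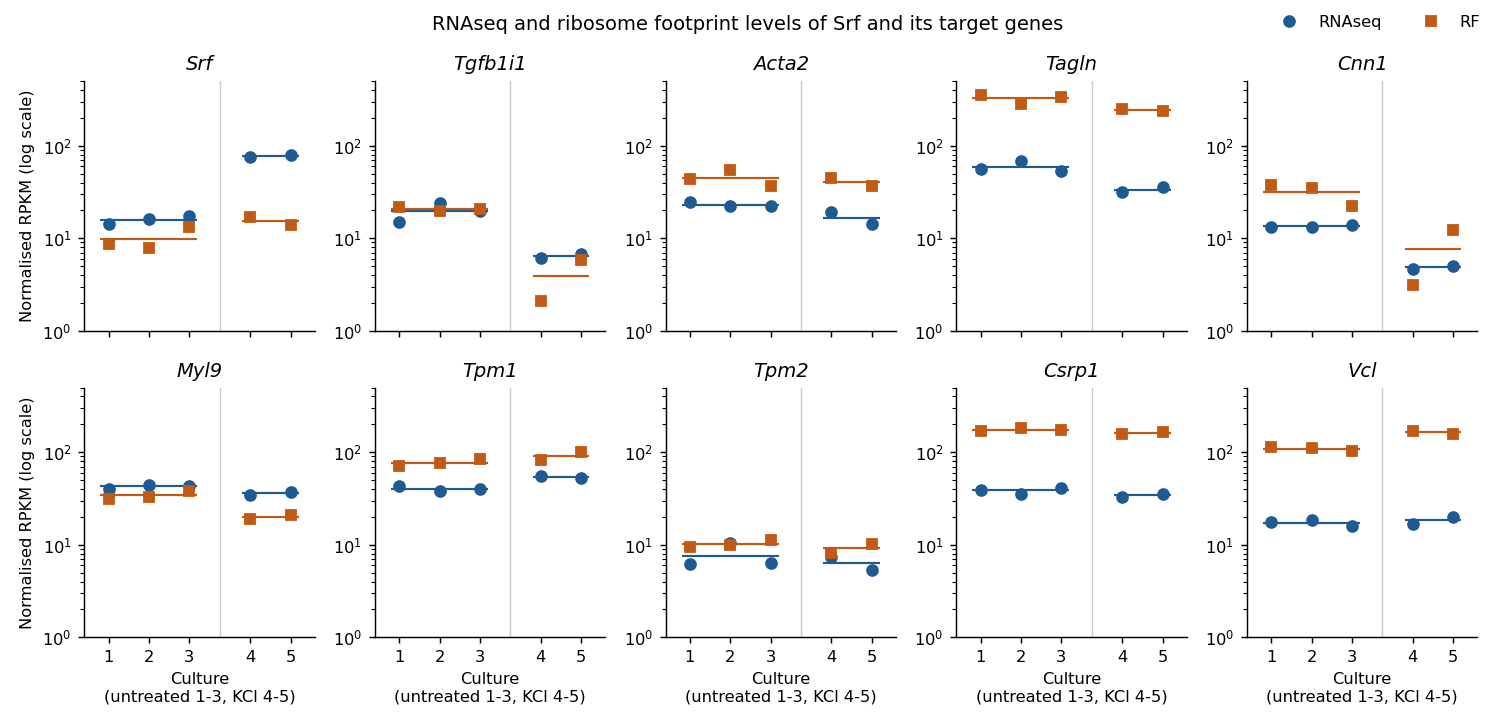
Normalised RPKM (log scale) of each member in cultures 1 to 3 (untreated) and 4 and 5 (KCl), with RNAseq over all regions as circles, RF over the coding region as squares and horizontal lines at the group means. Srf RNA is above 76 in both KCl cultures and below 18 in all untreated ones, Tgfb1i1 and Cnn1 fall in both measures, and Tpm2 stays near or under 11.

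The 2 targets that act with or at focal adhesions went separate ways. Tgfb1i1 encodes Hic-5, a LIM-domain adaptor of focal adhesions that also enters the nucleus. It had 151, 237 and 186 RNAseq reads in untreated cultures and 58 and 72 in KCl cultures, that is normalised RPKM of 15.1, 23.8 and 19.6 against 6.09 and 6.76. Its footprint RPKM was 21.8, 19.5 and 20.5 without KCl and 2.10 and 5.75 with KCl. The groups did not overlap in either measure, with log2 fold changes of -1.60 ± 0.21 (SE) in RNAseq and -2.21 ± 0.29 (SE) in RF, both called lower. All 6 of its transcripts, which share most of their reads, were called lower in both (RNAseq log2 fold changes from -1.60 to -1.51, RF from -2.42 to -2.14). The KCl footprints were only 4 and 21 reads, and without KCl culture 5 the RF value was -3.28, without KCl culture 4 it was -1.84. Its TE, at -0.70 ± 0.40 (SE), was not called, and its cultures overlapped.

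Vcl encodes vinculin, which ties integrin-bound talin to actin filaments. In RNAseq it had normalised RPKM of 17.7, 18.6 and 15.8 in untreated and 16.9 and 19.9 in KCl cultures. Its footprints rested on 447 to 2673 reads a library and lay at 113, 110 and 103 without KCl and at 171 and 156 with KCl. The groups overlapped in RNAseq (log2 fold change 0.08 ± 0.15, SE) and were well apart in RF (0.58 ± 0.08, SE, called higher). Both KCl cultures were above the untreated ones in TE (10.1 and 7.85 against 6.40, 5.92 and 6.51). These TE levels are overstated in every culture, because the RNAseq level is understated for lack of listed 3′UTR reads. The TE log2 fold change of 0.50 ± 0.18 (SE) was not called, although it was without untreated culture 1 (0.51).

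The calponin and transgelin genes, early markers of smooth muscle cells whose products bind actin filaments, were lower in both measures. Tagln, the most abundant member in RNA without KCl, had normalised RPKM of 56.2, 68.7 and 52.8 without KCl and 31.7 and 35.4 with KCl in RNAseq. Its footprint RPKM fell from 357, 282 and 338 to 250 and 239. The groups did not overlap, with a log2 fold change of -0.82 ± 0.17 (SE) in RNAseq and -0.41 ± 0.11 (SE) in RF, both called lower, the second not without KCl culture 5 (-0.38). Its TE lay higher in both KCl cultures (7.87 and 6.74) than in untreated ones (6.35, 4.11 and 6.41) but was not called (0.41 ± 0.21, SE).

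Cnn1, calponin 1, went from 103, 105 and 104 RNAseq reads to 35 and 42, or from 13.1, 13.4 and 13.9 to 4.67 and 5.01 normalised RPKM. Its footprint RPKM was 37.6, 34.6 and 22.3 without KCl and 3.14 and 12.3 with KCl. The untreated cultures were close to each other in RNA, and KCl culture 4 had only 4 footprints against 30 in KCl culture 5. The log2 fold change was -1.47 ± 0.25 (SE) in RNAseq and -1.90 ± 0.32 (SE) in RF, both called lower, and the second was -3.40 without KCl culture 5 and -1.45 without KCl culture 4. TE was not called and turned from -0.49 to 0.03 without KCl culture 4. Tgfb1i1 and Cnn1 passed the filter in the 3 untreated cultures and in no KCl culture, and 550 of the 7262 measured transcripts passed in this way. With no filter their log2 fold changes were -1.53 and -1.41 in RNAseq.

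Acta2, smooth muscle alpha actin, is the classic contractile target of SRF. It had normalised RPKM of 24.4, 22.1 and 22.1 in untreated and 19.1 and 14.4 in KCl cultures in RNAseq, and 44.2, 55.2 and 36.5 against 44.6 and 36.8 in RF. The RNAseq groups did not overlap and the RF groups did. Neither change was called (log2 fold change -0.46 ± 0.19 in RNAseq and -0.23 ± 0.17 in RF, SE). The RNAseq difference depended on where the reads lay. Those on the coding region were 50, 31 and 49 against 47 and 40 (log2 fold change 0.02 ± 0.30, SE), and the lower counts with KCl were on the 3′UTR (21, 24 and 19 against 12 and 10 reads) and on a region that the study does not name (86, 83 and 68 against 57 and 47). The Acta2 change in RNAseq was called lower when TMM was replaced by library totals (-0.53) and without KCl culture 4 (-0.67). Of the 30-letter stretches of its coding region, 3.0% also occur in transcripts of other genes, a pseudogene and gamma actin among them, and the share of its reads that other actins could give was not tested.

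Myl9, the regulatory light chain of smooth muscle myosin, lay at 40.0, 44.6 and 43.6 normalised RPKM without KCl and at 34.7 and 37.3 with KCl in RNAseq. Its footprint RPKM was 31.2, 32.9 and 38.6 without KCl and 19.0 and 21.2 with KCl. KCl cultures were below all untreated ones in both measures. The RNAseq log2 fold change of -0.25 ± 0.18 (SE) was not called, and with coding-region reads alone it was 0.18. The RF value of -0.70 ± 0.26 (SE) was called lower on 14 to 119 reads a library, and no longer without KCl culture 4 (-0.64), KCl culture 5 (-0.80) or untreated culture 3 (-0.66), with DESeq2 (-0.73) or with another filter.

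The tropomyosins, which lie along actin filaments and control access of myosin, were not called lower in any measure. The most abundant transcript of Tpm1, which has a 3′UTR of 1902 nt, had normalised RPKM of 42.9, 38.2 and 40.0 without KCl and 56.0 and 52.8 with KCl. The groups did not overlap, and the RNAseq log2 fold change of 0.43 ± 0.14 (SE) was called higher, though not without KCl culture 4 (0.39), KCl culture 5 (0.47) or untreated culture 2 (0.40). The other 4 Tpm1 transcripts had log2 fold changes between 0.03 and 0.10 and were not called. The rise was on the long 3′UTR, with 267, 247 and 261 reads against 399 and 389 (log2 fold change 0.52 ± 0.16, SE), whereas the coding region, which these transcripts share in part, had 143, 117 and 101 against 108 and 147 (0.09 ± 0.20, SE). Footprints on the same transcript overlapped between groups (70.6, 76.0 and 84.2 against 81.9 and 101 normalised RPKM) and were not called.

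Tpm2 was near the limit of detection, with 44, 74 and 43 RNAseq reads in untreated and 51 and 41 in KCl cultures and with 60, 53, 13, 10 and 24 footprints in cultures 1 to 5. Its cultures overlapped in both measures, and with no filter its log2 fold change was -0.19 ± 0.28 (SE) in RNAseq and -0.01 ± 0.34 (SE) in RF. Csrp1, a LIM protein that binds alpha-actinin, was not called in any measure. It had 39.3, 35.6 and 41.2 normalised RPKM against 33.1 and 35.7 in RNAseq and 168, 184 and 172 against 156 and 164 in RF. Its log2 fold changes of -0.17 ± 0.16 and -0.12 ± 0.12 (SE) were not called. Its 2 listed transcripts had equal footprint counts, and their RNAseq counts differed by 1 read in 1 library.

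**Figure D3:**
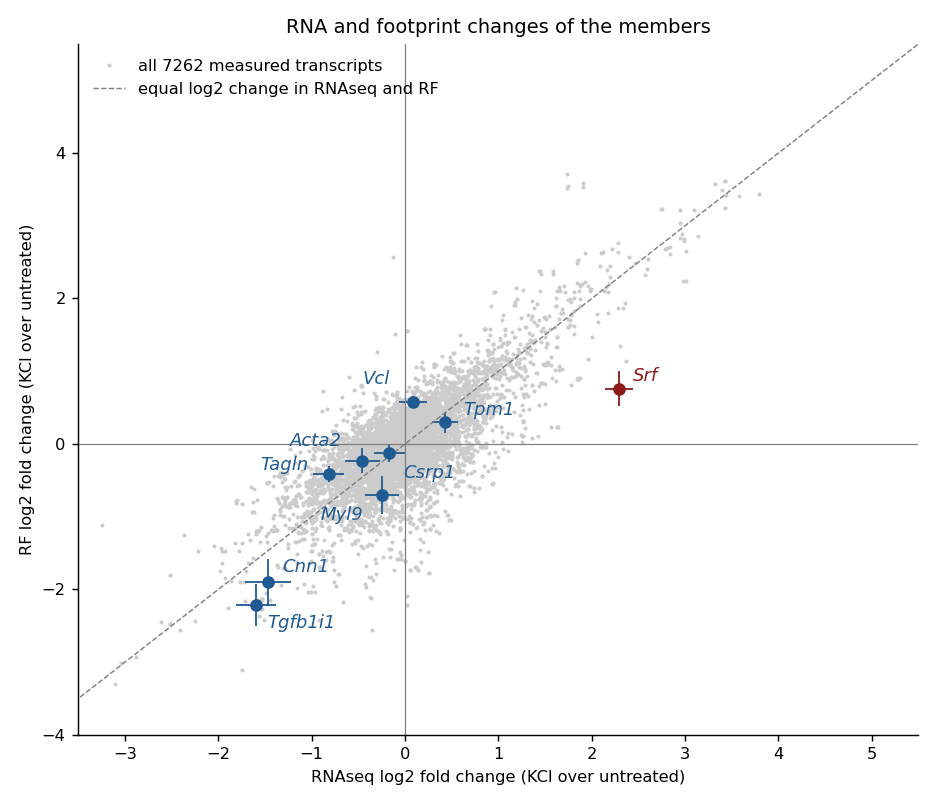
RNAseq log2 fold change (horizontal) against RF log2 fold change (vertical), KCl over untreated, for all 7262 measured transcripts (grey) and the 9 measured members (coloured, bars are SE). The dashed line marks an equal change in both. Srf lies far to the right of the line at 2.29 and 0.76, Tgfb1i1 and Cnn1 lie near the line at the lower left, and Vcl lies above the line.

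Set side by side, the RNA of Srf and of most of its contractile targets did not move together. Of the 8 measured targets, 1 (Tpm1) was called higher and 3 (Tgfb1i1, Cnn1 and Tagln) were called lower in RNAseq, and their median log2 fold change was -0.35 where that of all measured transcripts was -0.013. In RF, 1 (Vcl) was called higher and 4 (Tgfb1i1, Cnn1, Myl9 and Tagln) lower, with a median of -0.32 where that of all transcripts was -0.003. No target was called in TE. Over all measured transcripts, 17.5% were called higher and 15.7% lower in RNAseq, 21.2% and 19.8% in RF, and 1.67% and 4.13% in TE. The counts and medians of the targets were fixed in part by the choice of members and stand here as a description. Tgfb1i1 and Cnn1, counted as lower in RNAseq and RF, passed the filter in untreated cultures alone. The filter thus favours that direction for them. Both KCl cultures lay below all untreated cultures for 5 of the 8 targets in RNAseq (27.9% of all measured transcripts did so) and above for 1 (27.0%). In RF the same held for 5 below (30.6%) and 1 above (30.8%). In TE it held for 1 below (17.5%) and 2 above (16.7%). The calls over all measured transcripts split into 1272 higher and 1140 lower for RNAseq, and for RF into 1538 and 1436. When libraries were scaled by their totals, without TMM, these splits were 1098 to 1483 and 1187 to 1917, and the median RF log2 fold change of all transcripts moved to -0.107, but each member called lower or higher kept its direction.

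The partners of SRF were mostly below the measured level. Of 9 cofactor genes 8 were listed and 2 were measured, Mrtfb (an MRTF) and Fhl2 (a LIM protein that binds SRF), and neither was called in RNAseq or RF. Mrtfb lay at 13.5, 12.0 and 10.1 normalised RPKM without KCl and 9.81 and 8.42 with KCl in RNAseq (log2 fold change -0.38 ± 0.16, SE). Fhl2 lay at 8.13, 8.15 and 11.8 without KCl and at 13.6 in both KCl cultures (0.54 ± 0.26, SE). Mrtfb passed the filter in untreated cultures 1 and 2 alone and Fhl2 in KCl cultures 4 and 5 alone. The filter thus favours these directions, and the values are a description. Mrtfa was not measured and had between 85 and 118 reads a library. Myocardin (Myocd), the coactivator of smooth and cardiac muscle, had 1 to 3 reads in each RNAseq library.

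For SRF targets of the TCF branch, calls were in the higher direction. Of 13 such genes 8 were listed and 6 were measured, and each of the 6 was called higher in both RNAseq and RF, where 17.5% and 21.2% of all measured transcripts were. The list was not tested as a group and was chosen with earlier results of these data known. Egr2 entered this count through the KCl cultures alone. Fos, a subunit of AP-1, had a log2 fold change of 1.58 ± 0.18 (SE, edgeR adjusted p = 1.93e-09) in RNAseq. Fos RNA went from 11.6, 15.8 and 14.1 to 43.4 and 39.5 normalised RPKM, with no overlap. Ier2 (1.44) and Ccn1 (1.40) are further immediate early genes. Egr2, a zinc-finger transcription factor, lay at 1.63, 2.46 and 3.45 normalised RPKM without KCl and at 19.8 and 16.2 with KCl. It passed the filter in the 2 KCl cultures alone, so that it had to differ to be measured, and its values are a description. In TE, Fos was called higher (0.72 ± 0.23, SE, edgeR adjusted p = 0.0333), and the other 5 were not called. Egr1, Egr3, Egr4, Fosb and Nr4a1, further members of this list, were not analysed here.

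**Figure D4:**
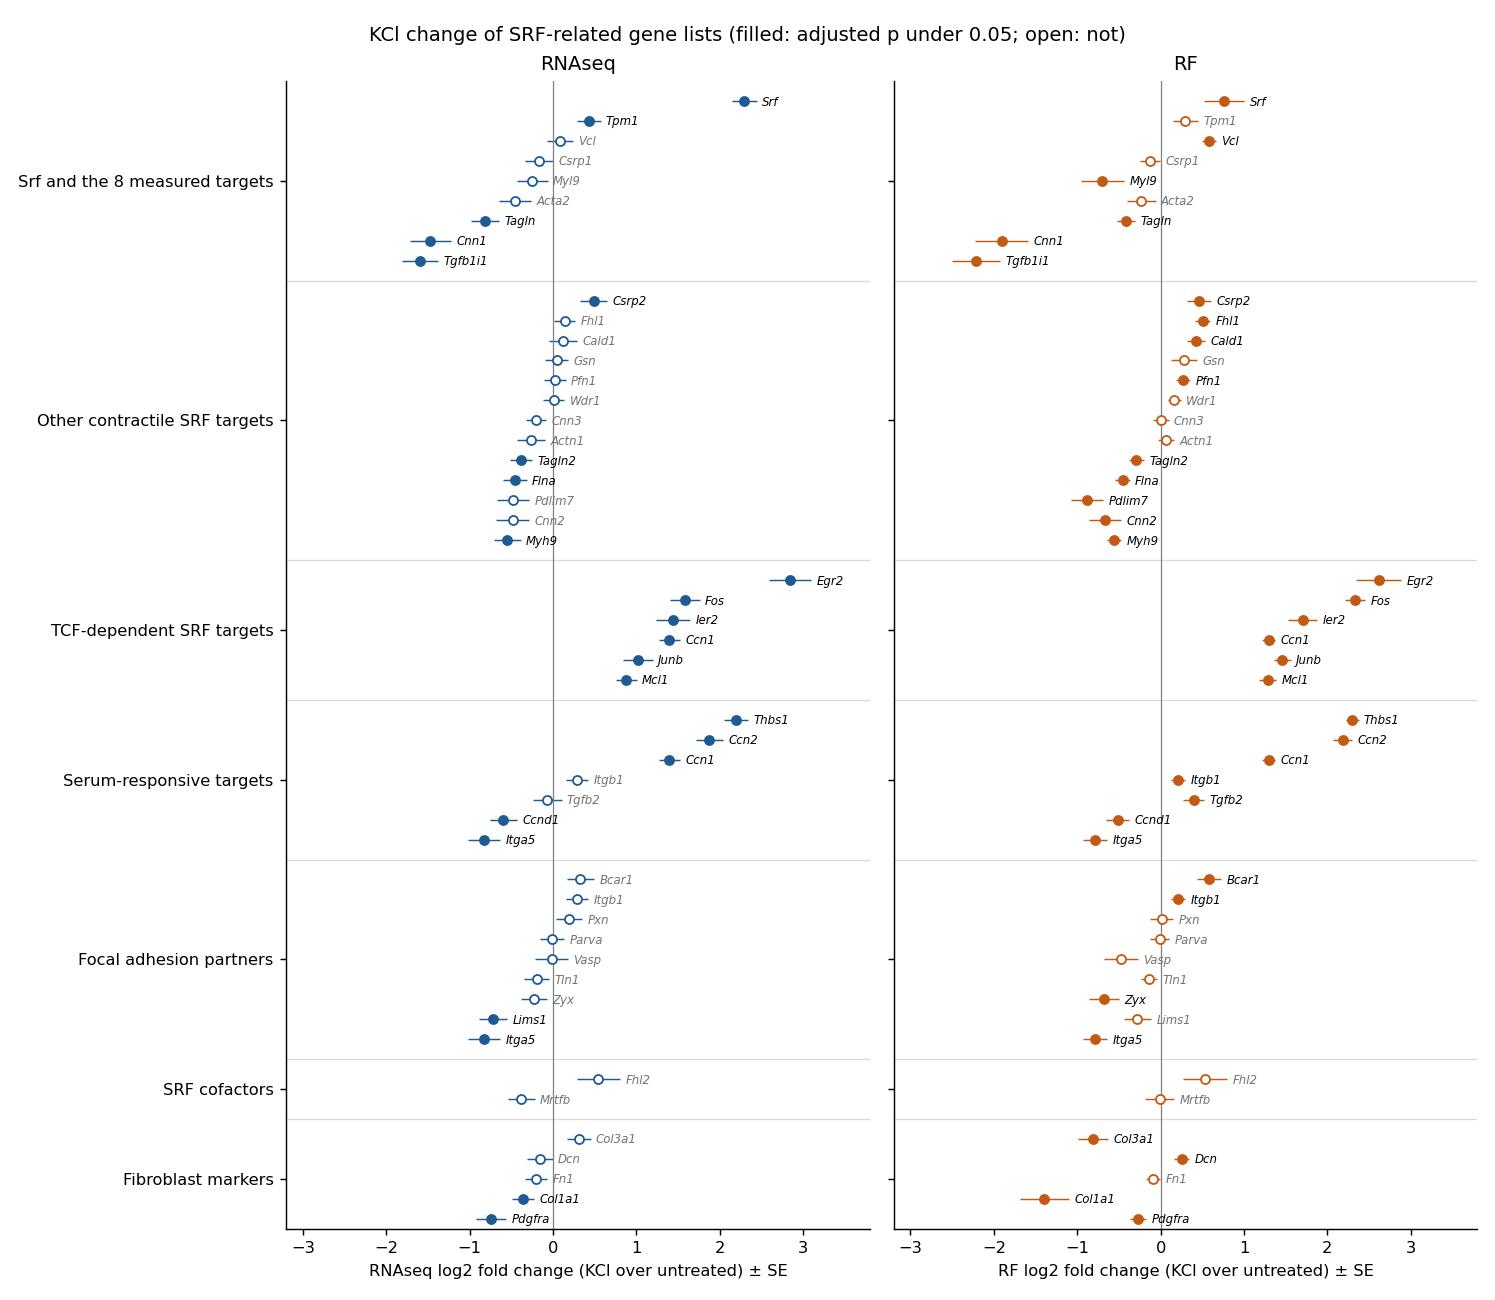
Log2 fold change (KCl over untreated) with SE of each measured gene of the SRF-related lists and of the fibroblast markers, in RNAseq (left) and RF (right). Filled points have an edgeR adjusted p under 0.05 and open points do not. Each of the 6 TCF-dependent targets is filled and right of 0 in both panels, while the contractile lists spread to both sides of 0. Among the 6, Egr2 passed the filter in the KCl cultures alone.

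Other contractile and cytoskeletal SRF targets were called in both directions. Of 30 genes 24 were listed and 13 were measured. In RNAseq, 1 was higher and 3 were lower, and in RF 4 were higher and 5 lower, where over all measured transcripts 17.5% and 15.7% were called in RNAseq and 21.2% and 19.8% in RF. The median log2 fold changes of the 13 were -0.21 and 0.06. Csrp2, a relative of Csrp1, was higher in both (RNAseq log2 fold change 0.48 ± 0.16, SE, edgeR adjusted p = 0.0146). Myh9, the heavy chain of non-muscle myosin (-0.55 ± 0.16, SE, edgeR adjusted p = 0.00696), Flna, an actin crosslinker (-0.46 ± 0.14, SE, edgeR adjusted p = 0.00974) and Tagln2 (-0.39 ± 0.13, SE, edgeR adjusted p = 0.0195) were lower in RNAseq and in RF. In RF alone, Pdlim7 (-0.88) and Cnn2 (-0.67) were called lower and Fhl1 (0.51), Cald1 (0.42) and Pfn1 (0.27) higher. Whether RNAseq and RF differed for these genes is what TE tests, and none of the 13 was called in TE. Beta and gamma actin (Actb and Actg1) were not analysed here.

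Of 10 serum-responsive genes that SRF with MRTF and YAP share, all were listed and 7 were measured. The matrix genes were higher in RNAseq, among them Thbs1, thrombospondin 1 (edgeR adjusted p = 5.46e-16, filter passed in 1 untreated and both KCl cultures), Ccn2 (log2 fold change 1.87 ± 0.16, SE, edgeR adjusted p = 1.33e-12) and Ccn1, which is also in the TCF list. Itga5, the fibronectin receptor subunit (-0.83 ± 0.19, SE, edgeR adjusted p = 0.000601), and Ccnd1, cyclin D1 (-0.60 ± 0.16, SE, edgeR adjusted p = 0.00295), were lower. In RF, 5 were higher and 2 lower. Over all measured transcripts, 17.5% were called higher and 15.7% lower in RNAseq, and 21.2% and 19.8% in RF. Thbs1 RNA went from 9.37, 11.2 and 8.68 to 47.2 and 42.1 normalised RPKM. Its footprints were also called higher, and its TE was not called (log2 fold change 0.10 ± 0.18, SE).

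Among 15 focal adhesion partners of vinculin and Hic-5, 12 were listed and 9 measured, and none was higher and 2 were lower in RNAseq. The 2 were Itga5, already named, and Lims1, a LIM adaptor (-0.72 ± 0.17, SE, edgeR adjusted p = 0.000801). In RF, Bcar1 (0.58) and Itgb1 (0.21) were higher and Zyx, zyxin (-0.68), and Itga5 (-0.78) lower. Of all measured transcripts, 17.5% were called higher and 15.7% lower in RNAseq, and 21.2% and 19.8% in RF.

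Some of the contractile members are also used as markers of smooth muscle cells, pericytes and fibroblast-like cells. No member was assigned to a cell type here. None of the 10 mural and smooth muscle cell markers reached the measured level. Their summed RNAseq level was 18.0, 19.5 and 16.5 normalised RPKM in untreated cultures and 11.2 and 13.8 in KCl cultures, so the groups did not overlap. The sum was carried by Anpep (8.85, 7.99 and 7.06 against 4.86 and 5.31) and Pdgfrb (3.53, 3.54 and 3.66 against 1.59 and 1.68), while Notch3 went the other way (1.02, 2.16 and 1.63 against 2.34 and 2.94). Of the defining markers, Myh11, Higd1b, Kcnj8 and Abcc9 were at 0 reads in 3 or 4 of the 5 RNAseq libraries and had at most 8 reads in any. The part of these cells in the fall of Tgfb1i1, Cnn1 and Tagln was not tested.

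Of 8 fibroblast and meningeal markers, 7 were listed and 5 measured. In RNAseq 2 were lower and none higher, where 15.7% and 17.5% of all measured transcripts were. Their summed level was between 173 and 205 normalised RPKM in untreated cultures and 180 and 156 in KCl cultures, which overlap. Col1a1 was lower in RNAseq (log2 fold change -0.36 ± 0.13, SE, edgeR adjusted p = 0.0283). Pdgfra, at 14.5, 9.82 and 11.6 without KCl and 7.47 and 6.81 with KCl, was also called lower but passed the filter in untreated cultures alone. Col3a1 was not called in RNAseq (0.305 ± 0.144, SE). In RF 3 of the markers were lower (19.8% of all) and 1 higher (21.2%). The 2 collagens were called lower in TE, as were 4.13% of all measured transcripts (Col1a1 -1.04 ± 0.17, SE, edgeR adjusted p = 2.92e-07, and Col3a1 -1.10 ± 0.18, SE, edgeR adjusted p = 1.99e-07). Markers of neurons and of glia were both present, as the study states of these cultures. Summed astrocyte markers lay between 3333 and 3751 normalised RPKM without KCl and at 2991 and 2985 with KCl. Of the 9 genes, 4 were lower in RNAseq (15.7% of all measured transcripts). In RF 4 were higher (21.2% of all) and 1 lower (19.8%). Summed neuron markers overlapped between groups (231 to 332 against 314 and 281). Summed oligodendrocyte markers (1312 to 1474 against 1293 and 1278) and microglia markers (176 to 195 against 164 and 172) lay slightly lower with KCl. The endothelial sum, with no gene measured, was slightly higher (7.97 to 9.08 against 10.4 and 9.17). That rise was carried by Esam (0.487, 0.163 and 0.342 against 3.24 and 2.28), with Pecam1 and Tek also higher on at most 5 reads. Cldn5 (1.71, 1.29 and 1.35 against 0.673 and 0.201) and Kdr (2.81, 3.28 and 2.53 against 1.72 and 2.40) went the other way. The part of any of these shifts in the members' values was not tested.

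The genes whose pattern was most like that of Srf were found by distance in the plane of RNAseq and RF log2 fold change over 4369 genes. The nearest were Syt4 (2.37 in RNAseq and 1.14 in RF, distance 0.39), Gpr19 (1.84 and 0.89, distance 0.47), Ppp1r15b, Ubn1 and Ifrd1, at distances up to 0.59. Each had a larger rise in RNAseq than in RF and a TE log2 fold change between -1.23 and -0.80. The choice by nearness to Srf largely set both traits in advance. The 5 genes nearest to Acta2 (Spryd7, Slc25a11, Lclat1, Bcl11a and 0610009B22Rik) lay within 0.03 of it, so the surroundings of Acta2 were crowded where those of Srf were sparse.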

How the data were processed

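RNAseq and ribosome footprint (RF) counts of 3 untreated and 2 KCl-treated cultures (10 libraries) were used, grouped by their labels. A further KCl replicate had been removed by the study for its small library. The authors trimmed reads with Trimmomatic 0.32, removed rRNA with STAR 2.3.1z8, aligned with bowtie2 2.2.2 to an mm10 transcriptome (Ensembl 75) without degenerate sequences, kept multi-mapped reads, and deposited raw counts of reads per transcript region as BEDTools 2.20.1 gave them, without normalization. Reads shared by isoforms are thus counted on each, and counts summed per gene hold such reads more than once.

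Transcripts were matched to a GRCm38 annotation (22172 of 22534, 98.4%). RNAseq values were counts over all regions and RF values counts on the coding region. A transcript counted as measured if 2 or more cultures each gave it an RPKM of 10 or above in RNAseq and in RF alike. KCl effects were tested over all 7262 measured transcripts by the edgeR 4.0.16 quasi-likelihood test (R 4.3.3, TMM, robust dispersions, Benjamini-Hochberg adjustment), and TE by the assay-by-treatment interaction in a fit blocked on culture, since both libraries of a culture came from 1 lysate. The counts themselves show little of this pairing: the correlation of RNAseq and RF deviations from the group means within a culture was between -0.068 and 0.065 across transcripts. A standard error is the absolute log2 fold change over the square root of F, an approximation. Each fit was first tested on simulated data. P-values measure the spread between these cultures, and an exact permutation of 3 against 2 cultures cannot give less than 0.1, so none was run.

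The members and the gene lists were chosen with earlier results of these data known. One of the fixed lists is not reported here. Each gene is given by its transcript with the most RNAseq reads. Of each further list, at most 4 genes higher and 4 lower are named, those with the largest change among the called, and for Srf and Acta2 the 5 nearest genes. Cutoffs for the shares of 5′UTR and 3′UTR reads (at least 10 and 30 reads) were set after the counts were seen. Alternatives were DESeq2 1.42.0, library totals, TMM over all libraries, filterByExpr, no filter beyond 1 read, counts summed per gene, coding-region or 3′UTR RNAseq reads alone, no block and leaving out each culture. Counting error limits values under about 30 reads. The median measured transcript had 70 to 379 footprints a library.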

Additional observations from a re-analysis of the deposited data

How the results depend on the processing

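Of 313 alternative values of the members' log2 fold changes, 283 kept direction and side of the threshold, 16 lost and 4 gained a call, and 10 changed sign, none of these a called value. With coding-region RNAseq reads alone the sign changed for Acta2 and Myl9 RNA (0.02 and 0.18) and for Acta2, Tpm1 and Csrp1 TE (-0.20, 0.18 and -0.088). With single cultures left out it changed for Vcl RNA (-0.041 without KCl culture 5, up to 0.20), Cnn1 TE (-1.82 to 0.03 without KCl culture 4), Tpm1 TE (-0.36 to 0.019 without KCl culture 4) and Csrp1 TE (-0.025 without untreated culture 3, up to 0.13). DESeq2 gave no adjusted p for Cnn1 TE. In RNAseq, 2412 transcripts were called, against 1528 with coding-region reads, 1433 with gene sums, 4232 with filterByExpr and 4166 with no filter, the last 3 over other numbers tested, and 1 member was higher with coding-region reads or gene sums in place of 2. In RF, 2974 transcripts were called, against 1678 with gene sums, 5330 with filterByExpr and 5412 with no filter, and 1 member was higher with DESeq2. In TE, 421 were called, against 260 with coding-region reads, 247 with gene sums and 174 with DESeq2. With no replicate block, 413 transcripts were called in TE, and the block changed no member's call. Leaving out each culture gave 1638 to 2613 transcripts in RNAseq, 1696 to 3234 in RF and 66 (without KCl culture 5) to 516 in TE, with 1 to 2 members higher in RNAseq, 1 to 3 in RF and 0 to 1 in TE, and 2 to 4 lower in RF. The cause of these moves was not tested. RF depth, at most 37 footprints on Srf, Tgfb1i1, Cnn1 and Myl9 in untreated culture 3 or KCl culture 4, limits the footprint values.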
